A study of Mus musculus with 26 samples.

Results

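The joins described here are bait-prey junctions within the immunoglobulin heavy chain (IgH) locus whose sequence reads carried 5 or more inserted bases. They were selected on the read positions in 26 junction tables, as entries with a prey in the part of chromosome 12 (mm9) that spans the S regions and at least 5 read bases left between the bait alignment and the prey alignment. The rule found 23947 joins among 616341 IgH junctions, out of 777800 junctions in all. The joins were thus chosen by the inserted length itself, so their share of a library is compared between conditions, and their length distribution is given as a description.

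In class switch recombination (CSR), activation-induced deaminase (AID) starts lesions in the switch (S) regions, which are long tandem repeats upstream of the constant genes. The lesions become DNA breaks, and the joining of a donor and an acceptor S region deletes the intervening sequence and changes the antibody class. Non-homologous end-joining rejoins broken ends directly or over very short homologies, whereas alternative end-joining relies more on microhomology (MH). Inserted bases at a join are extra nucleotides found on neither side. They are known to arise by template-free addition or by copying from a nearby or distant template.

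In CSR-HTGTS, a primer beside a bait region is used to amplify genomic DNA and to read which prey sequence was joined there. The libraries came from splenic CD43- B cells of WT and homozygous A150 mice, all 129Sv and 6-8 weeks old. In A150 mice, the Iγ3 promoter was replaced on both alleles by a PVH-VDJ-Eµ cassette, so that Sγ3 has the Eµ enhancer upstream and B cell development depends largely on IgG3. B cells were stimulated with anti-CD40+IL4 or with anti-CD40+TGF-β, which also contained IL4, IL5 and BLyS, for 96 h according to the labels. For anti-CD40+IL4 there were 3 WT and 4 A150 libraries prepared from the Sµ bait and 3 of each genotype from the Sγ3 bait. The anti-CD40+TGF-β set comprised 3 of each genotype from the Sµ bait and 3 WT and 4 A150 libraries from the Sγ3 bait. The study's legends count mice for these assays, but the labels do not tie libraries to mice, so p-values measure the spread between these libraries, part of which may be technical.

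The S regions used below are chr12:114642000-114681999 for Sµ, chr12:114588000-114620999 for Sγ3 and chr12:114558000-114587999 for Sγ1. Further downstream lie Sγ2b at chr12:114539000-114557999, Sγ2a at chr12:114522000-114538999, Sε at chr12:114504000-114521999 and Sα at chr12:114472000-114503999. Anti-CD40+IL4 is known to direct switching to IgG1 and IgE, and TGF-β to IgA.

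The following joins show what these insertions look like. Each is a deletional join of an A150 library with the inserted length that is the median of its class (rounded down for Sα), and all read toward decreasing coordinates. The 30 bait bases come first and the 30 prey bases last, in lower case, and capitals mark the inserted bases.
Sµ-Sγ1: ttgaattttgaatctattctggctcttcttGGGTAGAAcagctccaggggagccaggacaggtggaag
Sµ-Sε: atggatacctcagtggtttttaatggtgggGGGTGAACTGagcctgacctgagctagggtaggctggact
Sµ-Sµ: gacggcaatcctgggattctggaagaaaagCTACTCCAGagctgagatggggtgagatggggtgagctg
Sγ3-Sγ1: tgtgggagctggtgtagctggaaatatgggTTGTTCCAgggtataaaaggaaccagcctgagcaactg
Sγ3-Sε: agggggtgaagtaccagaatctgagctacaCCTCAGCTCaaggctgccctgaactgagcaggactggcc
Sγ3-Sγ3: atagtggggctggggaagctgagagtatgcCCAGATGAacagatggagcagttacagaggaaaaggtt
Sµ-Sα: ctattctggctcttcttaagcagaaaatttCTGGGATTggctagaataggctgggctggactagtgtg

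The Sµ-Sγ1 join linked chr12:114668858-114668887 to chr12:114576892-114576921 with 8 bp inserted. The Sµ-Sε join linked chr12:114668808-114668837 to chr12:114515174-114515203 with 10 bp, and the Sµ-Sµ join linked chr12:114668714-114668743 to chr12:114668001-114668030 with 9 bp. The Sγ3-Sγ1 join linked chr12:114606298-114606327 to chr12:114567753-114567782 with 8 bp. For Sγ3-Sε the positions were chr12:114606131-114606160 and chr12:114514425-114514454, and for Sγ3-Sγ3 chr12:114606201-114606230 and chr12:114603736-114603765. The Sµ-Sα join linked chr12:114668845-114668874 to chr12:114501500-114501529. These 5 joins to S regions other than the baited one leave out the DNA between donor and acceptor, whereas the Sµ-Sµ and Sγ3-Sγ3 joins are internal deletions.

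Joins with 5+ bp inserted were the rarest class of IgH junctions. They made up 3.89% of the 616341 junctions, against 50.04% with MH, 27.1% joined directly and 18.9% with 1 to 4 bp inserted. The frequency fell with length on both sides of the limit, with 12337 junctions at 4 bp, just outside it, and 5609 at 5 bp, just inside.

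Most of these insertions were short. Of the 23947 joins, 23.4% had exactly 5 bp, 35.8% had 6 to 9 bp and 26.3% had 10 to 19 bp. The median was 8 bp, the mean 11.1 bp and the longest 80 bp. The decline with length was not even. It was steep up to about 14 bp, where 524 joins were found, and nearly flat up to 21 bp, where there were still 496, before the number dropped to 266 at 25 bp and 141 at 28 bp. Insertions of 40+ bp were seen in 171 joins (0.714%).

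**Figure D1:**
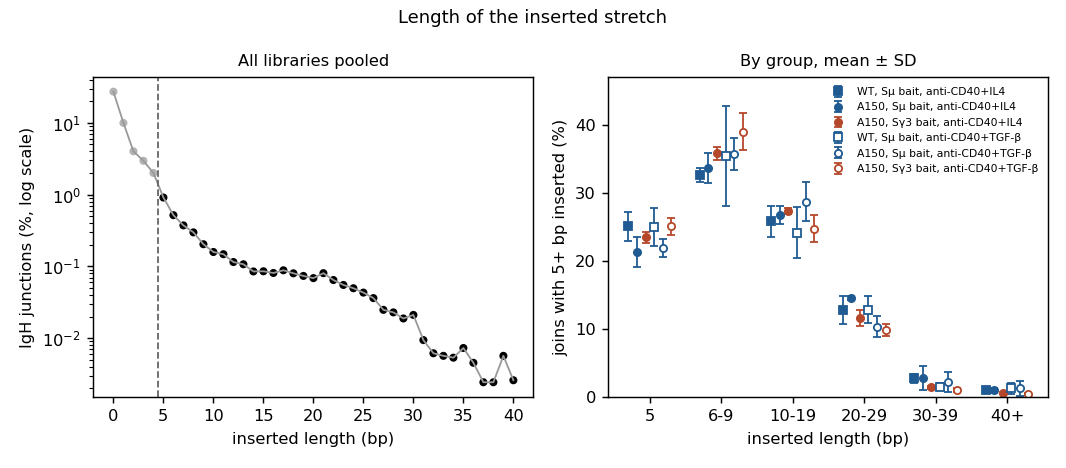
Left, share of all IgH junctions (%, log scale) by inserted length in bp, with all 26 libraries pooled; the dashed line is the limit of 5 bp, and the curve flattens between 14 and 21 bp. Right, share of joins with 5+ bp (mean ± SD over libraries) by length class in the 6 groups with deep libraries; the 6-9 bp class is the highest in every group.

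Depth set what could be compared. The 20 libraries with the Sµ bait or of A150 mice with the Sγ3 bait held from 4621 to 96481 IgH junctions. WT libraries with the Sγ3 bait held from 31 to 102, and their 15 joins with 5+ bp are given as counts below. The deposited tables flag 380579 IgH junctions as poorly mapped (low mapping quality). All of them lay in Sγ1, and they were counted unless stated otherwise.

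The first question was whether insertions occur at joins of Sγ3, now under the control of Eµ, as often as at joins of Sµ in the same A150 B cells. They were less frequent with the Sγ3 bait after either stimulation. For anti-CD40+IL4, the share of IgH junctions with 5+ bp was 3.27%, 3.70% and 3.67% in the 3 Sγ3 bait libraries and 4.27%, 4.94%, 4.71% and 4.26% in the 4 Sµ bait libraries. The groups did not overlap. The means were 3.55% ± 0.243 (SD, n = 3) and 4.54% ± 0.338 (SD, n = 4), and the difference of -0.996 percentage points had the smallest p an exact permutation test over 35 splits allows (2-sided p = 0.0286, adjusted p = 0.0408 over 10 measures).

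For anti-CD40+TGF-β, the Sγ3 bait libraries gave 3.27%, 3.52%, 3.78% and 3.33%, and the Sµ bait libraries gave 5.02%, 4.84% and 4.27%. Again every Sγ3 bait library lay below every Sµ bait library. The means were 3.48% ± 0.230 (SD, n = 4) and 4.71% ± 0.389 (SD, n = 3), a difference of -1.23 (exact permutation p = 0.0286, adjusted p = 0.0393 over 11 measures). Over both stimulations the difference was -1.12 (exact permutation p = 0.000816, permuted within stimulation, adjusted p = 0.00117). Its change between the stimulations was 0.239 percentage points (exact permutation p = 0.750, adjusted p = 0.978).

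**Figure D2:**
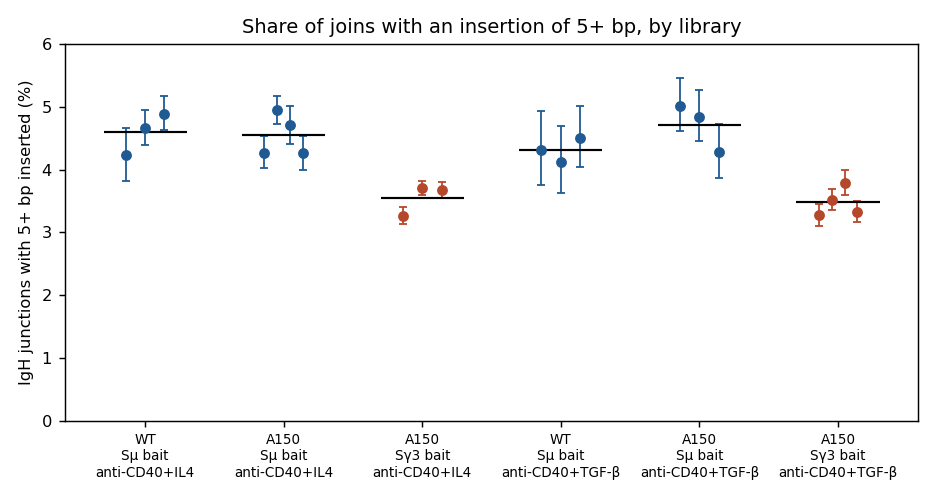
Share of IgH junctions with 5+ bp inserted (%) in each of the 20 deep libraries. Points are libraries with Wilson 95% binomial intervals, which cover counting error only, and horizontal lines are group means. The Sγ3 bait libraries lie between 3.27% and 3.78%, below all Sµ bait libraries, which start at 4.12%.

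The bait difference was also seen within several kinds of join. Among joins to Sγ1, the main acceptor after either stimulation, the share with 5+ bp after anti-CD40+IL4 was 3.20% ± 0.205 (SD, n = 3) with the Sγ3 bait and 4.61% ± 0.367 (SD, n = 4) with the Sµ bait. The corresponding values for anti-CD40+TGF-β were 3.12% ± 0.245 (SD, n = 4) and 4.87% ± 0.438 (SD, n = 3). Both differences passed the exact permutation test (adjusted p = 0.0408 and 0.0393), as did those among deletional and among inversional joins to Sγ1 taken alone. For anti-CD40+IL4 the inversional difference went from -1.05 to -0.293 for insertions of 10+ bp (exact permutation p = 0.371) and to -0.731 without junctions marked for low mapping quality (p = 0.286). For anti-CD40+TGF-β it lost its call for insertions of 3+ bp (-1.46, exact permutation p = 0.257). Among deletions within the baited S region itself after anti-CD40+IL4, 2.32% ± 0.330 (SD, n = 3) had 5+ bp with the Sγ3 bait and 3.86% ± 0.525 (SD, n = 4) with the Sµ bait (exact permutation, adjusted p = 0.0408). For anti-CD40+TGF-β these were 2.41% ± 0.310 (SD, n = 4) and 3.82% ± 0.377 (SD, n = 3; exact permutation, adjusted p = 0.0393). Without marked junctions these differences of -1.54 and -1.40 and their exact permutation p of 0.0286 were unchanged. Only the adjusted p rose past the threshold (0.0571 and 0.105).

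Joins to Sε, the acceptor for IgE, differed for anti-CD40+IL4 with 3.46% ± 0.451 (SD, n = 3) and 4.24% ± 0.103 (SD, n = 4; exact permutation, adjusted p = 0.0408). This difference of -0.786 was -0.466 for insertions of 10+ bp (exact permutation, adjusted p = 0.0653) and -0.774 with identical junctions counted once (adjusted p = 0.0714). Without marked junctions or without duplicates, the value and its exact permutation p of 0.0286 were unchanged. Only the adjusted p rose there, to 0.0571 in each, with the other measures of the comparison. For anti-CD40+TGF-β, where they were few, the shares were 3.10% ± 0.898 (SD, n = 4) and 3.44% ± 1.01 (SD, n = 3; exact permutation, adjusted p = 0.657). For Sα, the acceptor for IgA, 64 of 1700 joins with the Sγ3 bait and 27 of 541 with the Sµ bait had 5+ bp after anti-CD40+TGF-β. The difference in mean share, 3.66% ± 2.17 (SD, n = 4) against 5.13% ± 1.24 (SD, n = 3), did not pass (exact permutation, adjusted p = 0.314).

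Over both stimulations the mean length of the insertions was 10.6 bp with the Sγ3 bait and 11.7 bp with the Sµ bait, and 38.4% against 43.7% were 10+ bp long, which is a description only because length chose the joins. The difference in mean length, -1.09 bp, was -0.468 bp among junctions with longer alignments. Base composition differed between the baits. G and C made up 54.3% ± 0.689 (SD, n = 3) and 53.5% ± 0.442 (SD, n = 4) of inserted bases with the Sγ3 bait, and 51.1% ± 0.673 (SD, n = 4) and 50.2% ± 1.47 (SD, n = 3) with the Sµ bait. No library of one bait overlapped the other (exact permutation, adjusted p = 0.0408 and 0.0393). Over both stimulations the difference in G and C was 3.24 percentage points, which became 7.07 without junctions marked for low mapping quality and 1.59 for insertions of 10+ bp. Taken alone, the stimulations lost the call without marked junctions (exact permutation, adjusted p = 0.0571 and 0.105), and anti-CD40+TGF-β also for insertions of 10+ bp (1.47, adjusted p = 0.147). For insertions of 1 to 4 bp, which are not part of the class described, the bait difference was -2.42 for anti-CD40+IL4 (exact permutation, adjusted p = 0.0635) and -1.25 for anti-CD40+TGF-β (adjusted p = 0.0393). The latter was -0.188 without marked junctions and turned to 0.719 among junctions without MH.

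The bait difference in the overall share depended on junctions marked for low mapping quality. Without them it was -0.327 for anti-CD40+IL4 (exact permutation p = 0.257), -0.283 for anti-CD40+TGF-β (p = 0.200) and -0.305 over both (adjusted p = 0.0956). Leaving them out removes most joins to Sγ1, since from 83.9% to 92.2% of Sγ1 junctions other than those with 5+ bp carried the mark in the group means. Within Sγ1 the unmarked junctions alone gave a bait difference of -1.14 over both stimulations (exact permutation, adjusted p = 0.00490). Neither stimulation alone kept its call there, with 3.29% against 4.65% for anti-CD40+IL4 (exact permutation, adjusted p = 0.0571) and 2.89% against 3.81% for anti-CD40+TGF-β (adjusted p = 0.157). Among unmarked inversional joins to Sγ1 after anti-CD40+TGF-β, the difference turned to 0.301. Other technical features moved with the joins described. With the Sγ3 bait their bait alignments had a median of 71.7 bases in A150 anti-CD40+IL4 libraries, against 85.7 for other IgH junctions, and fewer of them were marked as duplicates (13.3% against 22.5%), as in all 20 libraries. Among junctions with longer alignments (50+ bait and 30+ prey bases) the bait difference was -1.13 for anti-CD40+IL4 and -1.40 for anti-CD40+TGF-β. Without marked duplicates it was -0.939 for anti-CD40+IL4, which lost its call (exact permutation p = 0.0571), and -1.22 for anti-CD40+TGF-β.

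With the Sµ bait, the shares of A150 and WT libraries overlapped for anti-CD40+IL4 and for anti-CD40+TGF-β. For anti-CD40+IL4, the 3 WT libraries gave 4.22%, 4.66% and 4.89%, with a mean of 4.59% ± 0.338 (SD, n = 3), and overlapped the A150 libraries. For anti-CD40+TGF-β they gave 4.31%, 4.12% and 4.503%, with a mean of 4.31% ± 0.189 (SD, n = 3). The difference stratified by stimulation, A150 minus WT, was 0.176 percentage points (exact permutation p = 0.354 over 700 arrangements, adjusted p = 0.567), and it ranged from 0.0839 to 0.285 when libraries were left out in turn. None of the 10 measures passed the test stratified by stimulation, and the lowest unadjusted p was 0.137. Without junctions marked for low mapping quality, however, the difference in mean length was 1.17 bp instead of 0.308 bp. This value is a description only, because length chose the joins. For anti-CD40+IL4 alone, inversional joins to Sγ1 (4.95% ± 0.308 in A150, n = 4, and 4.18% ± 0.375 in WT, n = 3) and joins to Sε (4.24% ± 0.103 and 3.33% ± 0.512) did not overlap between the genotypes. Both had an exact permutation p of 0.0286 and an adjusted p of 0.143.

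No difference between the stimulations was called in the overall share. The change from anti-CD40+IL4 to anti-CD40+TGF-β was -0.280 percentage points for WT with the Sµ bait (exact permutation p = 0.3, where 0.1 is the smallest possible), 0.167 for A150 with the Sµ bait (p = 0.571) and -0.0719 for A150 with the Sγ3 bait (p = 0.743). Joins of Sγ3 to Sα showed the widest gap, with 64 of 1700 after anti-CD40+TGF-β and 16 of 93 after anti-CD40+IL4, a stimulation under which few joins reached Sα. The mean shares were 3.66% ± 2.17 (SD, n = 4) and 16.2% ± 9.42 (SD, n = 3), without overlap (exact permutation p = 0.0286, adjusted p = 0.251).

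WT B cells gave few joins from the Sγ3 bait. For anti-CD40+IL4, 2 of 78, 5 of 76 and 2 of 102 IgH junctions had 5+ bp, or 9 in all (3.52%, exact 95% interval 1.62 to 6.57%). For anti-CD40+TGF-β there were 4 of 42, 1 of 31 and 1 of 33, or 6 in all (5.66%, 2.11 to 11.9%). These intervals include the shares of all other groups. Most of these 15 joins stayed within Sγ3, where 5 of 113 deletions and 3 of 21 inversions for anti-CD40+IL4 and 4 of 62 and 2 of 11 for anti-CD40+TGF-β carried 5+ bp. None of the 77 deletional joins to Sγ1 for anti-CD40+IL4 did, which allows a share of up to 3.896%, and none of 18 for anti-CD40+TGF-β (up to 16.7%).

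The S region at which the prey was joined was then compared within libraries, so that depth and preparation were shared. Over the 20 deep libraries, deletions within the baited S region carried 5+ bp less often than joins to Sγ1, with 3.17% against 4.11% on average (difference -0.943, sign-flip permutation test, adjusted p = 3e-05 over 6 tests, 2 of which are given below as descriptions, lower in 19 of 20 libraries). Joins to Sε averaged 3.61%, a difference of -0.503 from Sγ1 (sign-flip permutation p = 0.0125, adjusted p = 0.0234, lower in 14 of 20 libraries). This difference was negative in all 13 Sµ bait libraries but positive in 6 of the 7 Sγ3 bait libraries. The change with bait was not tested. The pooled difference lost its call without junctions marked for low mapping quality (-0.335) and turned to 0.0316 for insertions of 10+ bp. The difference between deletional and inversional joins to Sγ1 did not pass the test (difference -0.166, sign-flip permutation p = 0.383), and marked and unmarked junctions in Sγ1 differed by -0.195 (unmarked minus marked, adjusted p = 0.289).

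**Figure D3:**
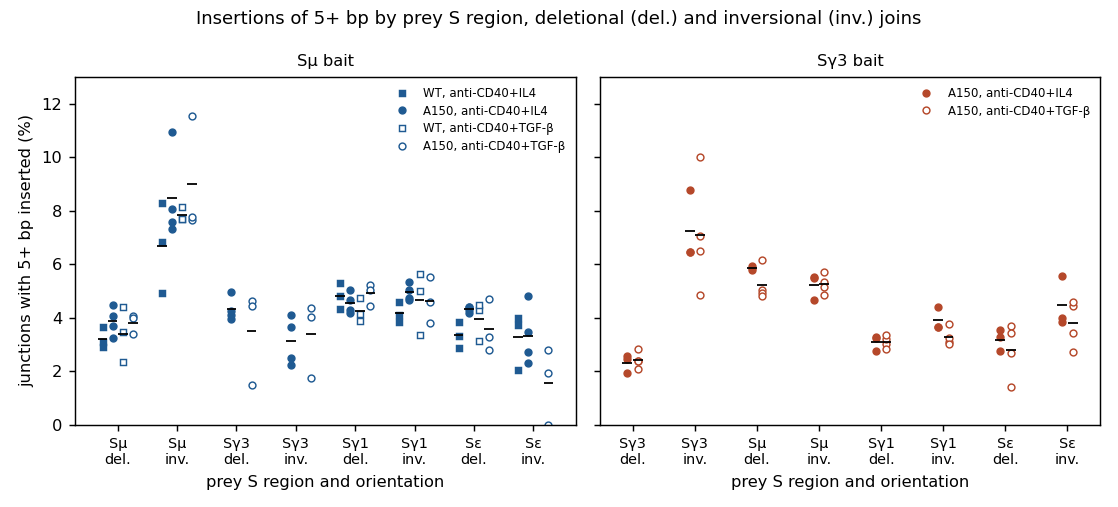
Share of junctions with 5+ bp inserted (%) by prey S region and orientation, for the Sµ bait (left) and the Sγ3 bait (right); each point is a library and each line a group mean. Among the S regions plotted, which leave out Sα for its few joins, inversions within the baited S region have the highest group means for either bait, from 6.67% to 8.99%.

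Within the baited S region itself, inversional joins carried 5+ bp in 7.73% on average, against 3.17% of deletional joins, and the inversional share was higher in 20 of 20 libraries. The difference, deletional minus inversional, was -4.56 and ranged from -4.69 to -4.40 when libraries were left out in turn. This comparison, and those of joins between Sµ and Sγ3 and of Sµ with Sγ1 from the Sγ3 bait, were chosen after the values had been seen, so they are given as descriptions with no test.

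In A150 libraries with the Sγ3 bait, inversions within Sγ3 had 5+ bp in 6.46%, 6.45% and 8.79% for anti-CD40+IL4 and in 7.05%, 4.85%, 10% and 6.49% for anti-CD40+TGF-β. These shares rest on 2871 and 2560 inversional junctions in the Sγ3 window used here. The study, by contrast, reports no inversions within Sγ3 from this bait after anti-CD40+IL4. The reason for that difference was not tested. Deletions within Sγ3 stayed between 1.95% and 2.83% in the same 7 libraries. With the Sµ bait, inversions within Sµ averaged 8.48% ± 1.68 (SD, n = 4) and 8.99% ± 2.22 (SD, n = 3) in A150 and 6.67% ± 1.69 (SD, n = 3) and 7.85% ± 0.266 (SD, n = 3) in WT. The highest value was 11.6% (A150, anti-CD40+TGF-β) and the lowest 4.91% (WT, anti-CD40+IL4). As a description, median inserted lengths at these inversions and at deletions in A150 libraries with the Sγ3 bait were 13 against 8 bp for anti-CD40+IL4 and 11.5 against 7 bp for anti-CD40+TGF-β. For the Sµ bait, the medians were 11 against 9 bp and 10 against 8.5 bp in A150, and 7 against 8 bp and 8 against 8 bp in WT.

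Joins between Sµ and Sγ3 were read from both baits, with deletional and inversional joins pooled. The products are partly different, since a deletional Sµ-Sγ3 join removes the DNA upstream of Sγ3 that holds the Sγ3 bait. From the Sγ3 bait, joins to Sµ had 5+ bp in 5.40% ± 0.347 (SD, n = 3) for anti-CD40+IL4 and 5.25% ± 0.256 (SD, n = 4) for anti-CD40+TGF-β, and the share exceeded that of joins to Sγ1 in 7 of 7 libraries by 2.16 percentage points. From the Sµ bait, joins to Sγ3 in A150 had 5+ bp in 3.51% ± 0.675 (SD, n = 4) and 3.43% ± 0.665 (SD, n = 3). The pooled share from the Sγ3 bait was higher by 1.85 percentage points, and the difference had the opposite sign to that in joins to Sγ1. Among inversional joins alone, anti-CD40+IL4 gave a mean of 5.21% from the Sγ3 bait and 3.11% from the Sµ bait. For anti-CD40+TGF-β these means were 5.26% and 3.38%. WT libraries with the Sµ bait held 4 joins to Sγ3 in all, none with 5+ bp.

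The joins with insertions were also spread differently over the locus than other IgH junctions. In A150 libraries with the Sγ3 bait, 16.7% ± 1.53 (SD, n = 3) of joins with 5+ bp were inversional joins to Sµ for anti-CD40+IL4, against 11.2% ± 1.14 of other junctions, and 18.3% ± 0.976 (SD, n = 4) against 11.9% ± 0.732 for anti-CD40+TGF-β. Deletional joins to Sγ1 made up less of them, with 51.0% against 58.9% and 47.7% against 53.9%. Both shifts had the same direction in 7 of 7 libraries. The lower share of deletional joins to Sγ1 was not general with the Sµ bait. After anti-CD40+IL4 it was 79.9% against 76.2% in WT and 61.4% against 61.4% in A150. After anti-CD40+TGF-β it was 76.4% against 77.5% in WT and 67.9% against 65.0% in A150. The minor acceptors added little. For anti-CD40+TGF-β, Sγ2b had 8 insertions of 5+ bp in 338 deletional joins of A150 with the Sγ3 bait, 4 in 102 of A150 with the Sµ bait and 2 in 22 of WT with the Sµ bait. None was found in 103 inversional joins of Sγ3 to Sγ2b, which allows a share of up to 2.91%.

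The G and C content of the insertions lay between those of the 2 sides of the join, whereas single bases did not all do so. With the Sµ bait they were on average 33.5% G, 24.8% A, 24.4% T and 17.3% C (n = 13 libraries). The G and C content was 50.9% ± 0.958, between the 34.0% of the last 20 bait bases and the 59.9% of the first 20 prey bases. With the Sγ3 bait, inserted bases were 30.7% G, 25.5% A, 23.2% C and 20.6% T (n = 7), and the G and C content of 53.9% ± 0.650 again lay between that of the bait side (43.9%) and the prey side (60.6%). The T content of these inserts was above the 15.8% of the bait side and the 16.1% of the prey side. A sequence of the IgH locus was rebuilt from the aligned read bases, since no genome was used here, and the inserted bases were set against the germline bases that follow the bait end or precede the prey start. Only 1 of 9277 insertions with the Sµ bait and 4 of 14670 with the Sγ3 bait were at least 80% identical to either. Median identities were 26.3% and 29.4% with the Sµ bait, and 27.3% and 36.4% with the Sγ3 bait.

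The motif AGCT, the preferred target of AID, which reads the same on both strands, was frequent in inserted stretches of 8+ bp. It occurred in 40.9% ± 5.37 (SD, n = 13) of those with the Sµ bait, against 20.8% ± 4.14 of prey stretches of the same lengths in the same reads, and was the more frequent in 13 of 13 libraries. With the Sγ3 bait it occurred in 33.1% ± 2.04 (SD, n = 7) of inserts and 34.5% ± 2.504 of prey stretches, and was more frequent in the insert in 1 of 7 libraries. These are descriptions, and a match is not a site of deamination.

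The longer inserted stretches could be searched for in the rebuilt IgH sequence, which covered 112383 positions. In the 20 deep libraries, 3300 inserts of 12+ bp from the Sµ side and 4564 from the Sγ3 side were tried on both strands. An exact match was found for 44.6% and 46.2%. The matched share was 51.5% and 49.1% at 12 to 14 bp and 23.8% and 20.7% at 30 bp and above. The search did not cover the rest of the genome or positions outside the rebuilt sequence. Because S regions are repetitive, only 480 and 779 of these inserts matched a single position.

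Matches lay in the baited S region, in the S region of the prey or in another S region. In A150 with the Sµ bait, the mean share of inserts that matched Sµ only was 19.2% for anti-CD40+IL4 and 17.5% for anti-CD40+TGF-β, and in WT it was 31.9% and 23.3%. The S region of the prey only, where this was not Sµ, was matched by 14.1% and 13.6% in A150 and by 10.3% and 11.7% in WT, and another S region only by 7.12% and 6.09% in A150 and by 1.76% and 1.14% in WT. In A150 with the Sγ3 bait, 13.6% and 14.2% matched Sγ3 only, 21.8% and 19.4% the S region of the prey only, and 8.89% and 7.22% another S region only. The matched S region differed with the prey, which was not tested. With the Sγ3 bait, 336 of 1168 inserts at joins to Sµ (28.8%) matched Sµ only, against 122 of 2568 at joins to Sγ1. With the Sµ bait, 60 of 337 inserts at joins to Sε matched Sε only, against 8 of 2554 at joins to Sγ1. The longest matched insert of each bait is shown here with its flanks, the inserted bases again in capitals.
longest matched, Sµ bait: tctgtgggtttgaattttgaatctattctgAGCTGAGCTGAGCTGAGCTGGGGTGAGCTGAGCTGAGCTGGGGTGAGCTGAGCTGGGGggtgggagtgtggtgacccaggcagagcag
longest matched, Sγ3 bait: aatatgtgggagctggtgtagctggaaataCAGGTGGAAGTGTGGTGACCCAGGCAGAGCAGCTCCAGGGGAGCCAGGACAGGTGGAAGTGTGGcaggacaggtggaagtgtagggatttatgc

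The first, from a WT anti-CD40+TGF-β library, joined chr12:114668867-114668896 in Sµ to chr12:114571485-114571514 in Sγ1, and its 58 inserted bases occur at a single position, chr12:114666281-114666338 in Sµ, on the minus strand like the bait. Its insert is a run of Sµ repeats between an upstream Sµ end and Sγ1. The other, from an A150 anti-CD40+IL4 library, joined chr12:114606302-114606331 in Sγ3 to chr12:114572911-114572940 in Sγ1 with 64 bases that occur at 13 positions of the Sγ1 repeats, the first at chr12:114571649-114571712. Which of these positions it came from, and how far from the join that lies, could not be read.

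Where a matched stretch had a single position, its distance and direction could be read. This was so for 282 of 751 inserts that matched Sµ only with the Sµ bait and for 483 of 638 that matched Sγ3 only with the Sγ3 bait. No background was computed, and the baits lie upstream of the repeats, so that these values describe the placed inserts only. Of 282 inserts with a single position in Sµ and the Sµ bait, 255 lay downstream of the bait end. The median position over all 282 was 693.5 bp downstream (interquartile range 112.5 to 953), and 88.7% had the direction of the bait. Of 483 with a single position in Sγ3 and the Sγ3 bait, 472 lay downstream, the median position over all 483 was 281 bp downstream (28.5 to 803), and 95.03% had the direction of the bait. Within 1000 bp of the bait end lay 78.7% and 82.4%, respectively. The distance of pieces of the prey's S region from the prey end varied widely with either bait. The median was 642 bp (interquartile range 83 to 1889.5) for 100 inserts with the Sµ bait, of which 94.0% had the direction of the bait, and 1232 bp (102.75 to 2654) for 226 inserts with the Sγ3 bait, of which 55.8% did. These direction shares pool deletional and inversional joins, whose prey strands are opposite, and the mix differed between baits. Among all inserts that matched the prey's S region only, the Sγ3 bait had 231 at inversional and 105 at deletional joins to Sµ. At joins to Sγ1 it had 90 and 519, against 27 and 324 with the Sµ bait.

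Pieces of Sγ3 occurred in Sµ bait joins of A150 but not of WT. In A150, 101 of 2193 inserts of 12+ bp (4.61%) matched Sγ3 only, in 7 of 7 libraries. In WT this was 0 of 1107 in 6 libraries, which allows a share of up to 0.271%. The 101 inserts held 47 distinct sequences and 75 distinct junctions, with a median length of 20 bp, and 71 of the 82 with a single position had the direction of the bait. Most were at joins to Sγ1, with 79 of 1568 in A150 and 0 of 986 in WT, so that Sµ, Sγ3 and Sγ1 sequence stood in a single read. An example, chosen after its values had been seen, is given with its inserted bases in capitals.
Sγ3 piece in a Sµ-Sγ1 join: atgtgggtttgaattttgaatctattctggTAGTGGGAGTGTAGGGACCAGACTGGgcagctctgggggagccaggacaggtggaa

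This A150 anti-CD40+TGF-β join linked chr12:114668866-114668895 to chr12:114572193-114572222, and its 26 inserted bases occur only at chr12:114604295-114604320 in Sγ3. Across libraries, the share of such inserts was 4.47% ± 2.71 (SD, n = 4) for anti-CD40+IL4, from 1.56 to 7.16%, and 5.65% ± 2.77 (SD, n = 3) for anti-CD40+TGF-β, from 2.5 to 7.74%. No test is given, since the comparison was chosen for the absence of such inserts in WT. The mean over the stimulations was 5.06% and stayed between 3.66% and 5.84% when libraries were left out in turn and under 5 other settings (without marked junctions, without duplicates, each sequence once per library, 15+ bp, and without joins to Sγ3).

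The matches are a description, and no test of the other sources is given either. Matches to Sµ only made up 18.4% in A150 and 27.6% in WT, a difference of -9.24 percentage points. For anti-CD40+IL4 they ranged from 15.8 to 21.3% in A150 and from 29.5 to 33.4% in WT, without overlap, whereas for anti-CD40+TGF-β the ranges of 11.3 to 26.3% and 19.4 to 30.9% overlapped. The share of inserts with any match in the locus was 41.8% in A150 and 43.4% in WT. In A150, any match was found for 45.6% with the Sγ3 bait and 41.8% with the Sµ bait, and a match to the baited S region only for 13.9% and 18.4%.

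**Figure D4:**
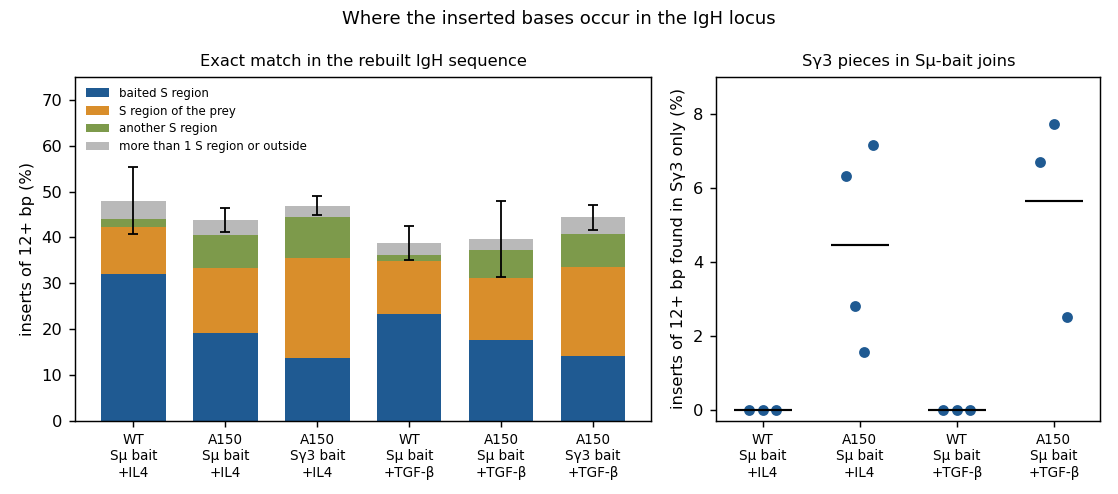
Left, share of inserts of 12+ bp (%) with an exact match in the rebuilt IgH sequence, by where the match lies (stacked mean shares; error bars are the SD of the total over libraries; "another S region" is one that is neither the baited one nor that of the prey). Right, share of inserts of 12+ bp in Sµ bait libraries that match Sγ3 only (points, libraries; lines, means), which is 0 in 6 WT libraries and from 1.56 to 7.74% in 7 A150 libraries.

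Some inserted sequences recurred. Among inserts of 8+ bp, 300 of 5254 distinct sequences with the Sγ3 bait (5.71%) and 149 of 3157 with the Sµ bait (4.72%) were found in more than 1 of the 13 libraries of each bait. The 5 sequences found in most libraries for each bait are given in capitals, as they are inserted bases only.
Sγ3 bait, in 7 libraries and 24 distinct junctions: CCCCAGCT
Sγ3 bait, in 7 libraries and 22 distinct junctions: TCCAGGGC
Sγ3 bait, in 7 libraries and 14 distinct junctions: AGCTGGGG
Sγ3 bait, in 7 libraries and 12 distinct junctions: CAGCTCACCC
Sγ3 bait, in 6 libraries and 16 distinct junctions: CTCCAGGGC
Sµ bait, in 10 libraries and 13 distinct junctions: TCCAGGGC
Sµ bait, in 5 libraries and 11 distinct junctions: GCAGCTCC
Sµ bait, in 5 libraries and 8 distinct junctions: CAGATATA
Sµ bait, in 5 libraries and 7 distinct junctions: AGCTGGGG
Sµ bait, in 5 libraries and 7 distinct junctions: GGGTGAGC

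In the rebuilt sequence, CCCCAGCT and its reverse complement AGCTGGGG occur at 146 positions on either strand, 106 of them in Sµ. CAGCTCACCC occurs at 121 positions, all in Sµ, which was also the most frequent prey of the Sγ3 bait joins that carried it. TCCAGGGC occurs at 49 positions, 43 of them in Sγ1, and GCAGCTCC at 66, of which 61 lie in Sγ1. CAGATATA, by contrast, occurs at 7 positions.

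The bait ends at which insertions occurred were also uneven. The germline around the leading ends is shown, with the bases kept in the join in lower case and the bases lost after the end in capitals.
Sγ3, end at 114606283: aaaatagaataaccaGCTACAGGAGATCTA
Sγ3, end at 114606256: ctagaggagaaaggaGCATAAGGAGTCTGA
Sγ3, end at 114606291: aatatgggaaaatagAATAACCAGCTACAG
Sµ, end at 114668809: ggtttttaatggtggGTTTAATATAGAAGG
Sµ, end at 114668810: tggtttttaatggtgGGTTTAATATAGAAG
Sµ, end at 114668835: aatttagataaaatgGATACCTCAGTGGTT

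With the Sγ3 bait, 10.2% ± 1.27 (SD, n = 7) of joins with 5+ bp ended at 114606283, against 4.62% ± 0.459 of other IgH junctions, and 3.13% ± 0.344 ended at 114606256, against 1.73% ± 0.114. Both ends were the more used by joins with insertions in 7 of 7 libraries. The end at 114606291 took 2.19% ± 0.570 against 2.03% ± 0.220, and was the more used in 5 of 7. With the Sµ bait, 7.07% ± 1.31 (SD, n = 13) ended at 114668810 against 2.43% ± 0.184, in the same direction in 13 of 13 libraries. The neighbouring end at 114668809 was used by 8.82% ± 2.34 against 5.52% ± 0.430 and the end at 114668835 by 3.03% ± 1.24 against 1.67% ± 0.292, each in 12 of 13 libraries. The ends at 114606283 and 114606256 both precede GC in the germline, in the first case that of an AGCT motif, whereas the end at 114606291 precedes AA and the 3 Sµ ends precede G. The ends were chosen for being the most frequent among these joins, so no test is given.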

How the data were processed

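The authors deposited a table of bait-prey junctions for each of the 26 libraries, whose positions and strands (unit: other) are not normalized. The submitters' processing notes name Bowtie2 and mm9, and the aligner's version is not given in the sources used here. Inserted bases were the read bases between the end of the bait alignment and the start of the prey alignment. In all junctions they equalled the gap that the deposited tables state. Prey strand separated deletional from inversional joins. S regions were delimited at the lowest junction density in bins of 1000 bp between neighbouring peaks. The bait alignment of 131 IgH junctions was not on chromosome 12, and they were counted. A label for the target locus reads WT for all Sµ bait and A150 for all Sγ3 bait libraries. Genotypes were taken from the titles, which match the genotype label in all 26. The members and lists were chosen with earlier results of these data known.

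A library entered a measure as 1 value, provided that its denominator held at least 20 junctions. The unpaired t test of the study's methods was replaced by 2-sided exact permutation tests over libraries, because groups hold 3 or 4 libraries. Values compared within libraries were tested by sign-flip permutation (100000 resamples over 20 libraries), with Benjamini-Hochberg adjustment over the measures of a comparison and a threshold of 0.05. Binomial intervals are exact at 95%, floors are 3 counts, and both cover counting error only. The procedure was tested on simulated junctions. Same-numbered libraries were checked for shared deviations, and every pair correlated above 0.1 only in the stimulation comparison of A150 with the Sγ3 bait (r from 0.111 to 0.821), where the paired value changed no call.

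The IgH sequence was rebuilt as the majority base of the aligned read bases, and 8 inserts with an undetermined base were kept. Printed joins were the first in file order that had neither mark, gap-free alignments and the median inserted length of their class. Printed inserts were the longest with a match and the 5 found in most libraries for each bait. The alternatives were 3+ or 10+ bp, exclusion of marked, repeated, later or short-aligned junctions or of germline-like inserts, core windows, another denominator, pooling, pairing and leaving out each library. Python 3.11.15, numpy 2.4.6, pandas 2.3.3, scipy 1.17.1 and matplotlib 3.10.9 were used.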

Additional observations from a re-analysis of the deposited data

Results flagged for a closer look

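The genotype difference in insertions of 5+ bp at joins of Sµ to Sε, A150 minus WT, had opposite signs after the 2 stimulations. Neither value was called on its own. It was 0.913 percentage points for anti-CD40+IL4 (4.24% ± 0.103, n = 4, against 3.33% ± 0.512, n = 3) and -0.595 for anti-CD40+TGF-β (3.44% ± 1.01, n = 3, against 4.04% ± 0.258, n = 3). The test of the change itself gave 1.51 percentage points (exact permutation p = 0.0386 over 700 arrangements), which did not pass after adjustment over 10 measures (adjusted p = 0.386). The anti-CD40+TGF-β values rest on 60 of 1767 joins in A150 and 12 of 298 in WT.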

How the results depend on the processing

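Without junctions marked for low mapping quality, the bait difference in the share with 5+ bp was -0.327 for anti-CD40+IL4, -0.283 for anti-CD40+TGF-β and -0.305 over both, none past the threshold. That setting also gave 0.301 for inversional joins to Sγ1 between baits after anti-CD40+TGF-β and -0.335 for Sε minus Sγ1 (no longer called). The genotype difference there was -0.330 in Sγ1, 0.944 in G and C content and, as a description only, 1.17 bp in mean length. Stimulation differences there were 0.176 (WT), -0.296 (A150, Sµ bait) and -0.834 (its joins to Sγ1). The bait difference for anti-CD40+IL4 lost its call without duplicates (-0.939), with identical junctions counted once (-0.940) and among junctions without MH (-1.07). Those in Sγ1, in Sε and among deletions in the baited S region lost theirs too. For Sε and these deletions the exact permutation p stayed at 0.0286, the smallest possible, in each of these settings, and only the adjusted p rose. In Sγ1 this was so without duplicates (-1.475). Unmarked minus marked junctions in Sγ1 became called without duplicates (-0.710) and with identical junctions counted once (-0.806). Uncalled values changed sign in other cases. With 3+ bp, the stimulation difference of A150 with the Sγ3 bait was 0.424, and 0.582 in Sγ1. With 10+ bp, the genotype difference in mean length was -0.240, the stimulation difference of A150 with the Sµ bait -0.0456 and the orientation difference in Sγ1 0.0543, and the called Sε minus Sγ1 turned to 0.0316. With longer alignments, the stimulation differences with the Sγ3 bait were 0.0232 and 0.00955 (Sγ1), and Sε minus Sγ1 was no longer called (-0.309). With identical junctions counted once, the stimulation difference in Sγ1 of A150 with the Sµ bait was -0.00141. Among junctions without MH, the orientation difference in Sγ1 was 0.182 and, after anti-CD40+TGF-β, the called bait difference in 1 to 4 bp turned to 0.719. With same-numbered libraries paired (replicate block), the bait differences were -1.09 and -1.19, where 3 pairs allow no p below 0.250, and the stimulation difference in Sγ1 with the Sγ3 bait was 0.0113. Pairing changed no other call that it could reach. Leaving out each library gave from -1.09 to -0.855 for the bait difference after anti-CD40+IL4 and from -1.45 to -1.08 after anti-CD40+TGF-β, where no p can fall below 0.0667, and from -1.22 to -1.04 over both (p from 0.00143 to 0.00190). It gave from -0.767 to 0.214 for Sε after anti-CD40+TGF-β, and from -0.212 to 0.00627, and from -0.198 to 0.0113 in Sγ1, for the stimulation difference with the Sγ3 bait. The cause of these changes was not tested. Core windows gave no value for the share over all IgH junctions. Depth limits Sα, Sγ2b and the WT Sγ3 bait libraries.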
